A study of Mus musculus with 16 samples.

Results

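The genes described here are 10 core genes of the Notch pathway, taken by name from a count table of 25054 genes in 16 mouse osteosarcomas. They are the receptors *Notch1*, *Notch2*, *Notch3* and *Notch4*, the ligands *Jag1*, *Jag2*, *Dll1* and *Dll4*, and the target genes *Hes1* and *Hey1*. All 10 were in the table, and all 10 passed the filter on low counts.

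Notch receptors are cell surface proteins that are cleaved when they bind a Jagged or Delta-like ligand on a neighboring cell. ADAM proteases and then the gamma-secretase complex cut the bound receptor, and the freed intracellular domain enters the nucleus. There it joins the DNA-binding protein RBPJ and a Mastermind coactivator and switches on target genes, among them the Hes and Hey transcriptional repressors. In bone, Notch signaling restrains the maturation of osteoblast precursors, and in blood vessels it acts between endothelial and mural cells.

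All mice carried 1 copy of OsxCreERT2, a tamoxifen-inducible Cre driven by the *Osterix* promoter of pre-osteoblasts, with p53fl/fl and Rb1fl/fl. The 8 tumors labeled KO also carried Arid1afl/fl and came from 8 mice, and the 8 tumors labeled WT had no floxed *Arid1a*. Mice of both sexes received 400 μg of tamoxifen per gram at 1 month of age and were older than 6 months. By their animal codes, the WT tumors came from 4 mice: N42 gave 4 of them, N43 gave 2, and N215 and N25 gave 1 each. Tumors of 1 mouse are not independent. Sites were labeled for WT tumors only: spine or pelvis in 3, limb, femur or shoulder in 4, and lung in 1. The label of the lung tumor does not say whether it was a metastasis. The edgeR fold changes of *Jag2*, *Dll1* and *Hes1* are given with and without it, and all comparisons over mice include it.

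Values are CPM, the reads of a gene per 1000000 reads of the TMM-normalized library, or CPM per kilobase of exon where genes are compared with each other. KO totals ran from 1109487 to 15059640 counts and WT totals from 7806160 to 16962329. The detection floor of 3 counts was highest in the shallowest KO libraries, Massa (6.69 CPM) and Grilka (4.03 CPM), and ran from 0.146 to 0.340 CPM in WT. Counted over the whole gene, *Arid1a* was at 187 ± 57.5 CPM in KO and 167 ± 31.8 CPM in WT (SD, n = 8 each), and reads on the floxed exons could not be told from the rest. The osteoblast marker *Sp7* had 0 counts in Massa, which allows up to 6.69 CPM, and 0.166 CPM (2 counts) in Prince. In the WT tumors *Sp7* ran from 5.49 to 147 CPM, so Massa cannot be placed below all of them. The other defining osteoblast marker, *Ibsp*, was at 116 CPM in Massa and 0.166 CPM in Prince, against 3.29 to 2514 CPM in WT. Lung markers stood out in 2 tumors: their summed level was 28908 CPM in the N25 lung tumor and 11926 CPM in Massa. Skeletal muscle markers summed to 105919 CPM in Montana and 157652 CPM in Oregon.

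RBPJ binds DNA at the core sequence TGGGAA, and this core was searched on both strands in the 250 bases before each RefSeq start site (GRCm38.p6). Of 32851 such windows, 21.6% held it. The targets *Hes1* and *Hey1* had no window among those searched. None of the 9 windows of the other 8 members, all receptors or ligands, held the core. Of 64 windows of 48 other pathway genes, 16 held it, in 15 genes. Stretches of 2 of these are shown as examples, with the core or its reverse complement in capitals. Their genes encode a Hes/Hey-family repressor and a receptor-modifying enzyme that are known Notch targets. The windows of the Hes-family genes *Hes5* (2 matches) and *Hes7* (1 match) also held the core and are not shown. A match is a description of the letters only.
*Hey2*, chr10:30842960-30843015, minus strand: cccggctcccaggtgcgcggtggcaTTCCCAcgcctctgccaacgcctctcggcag
*Lfng*, chr5:140607181-140607263, plus strand: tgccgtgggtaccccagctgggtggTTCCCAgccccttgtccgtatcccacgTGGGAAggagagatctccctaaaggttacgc

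*Notch2* was the most abundant of the 10 transcripts per length, and the ligands *Dll1* and *Jag2* were the least. Over the 16 tumors the median of *Notch2* was 30.0 CPM per kilobase (range 6.21 to 60.9). *Notch3* followed with a median of 9.43, *Jag1* with 7.81, *Hes1* with 6.30, *Notch1* with 6.19, *Notch4* with 4.29, *Hey1* with 4.03, *Dll4* with 2.79 and *Jag2* with 2.46 CPM per kilobase, and *Dll1* was last. *Notch2* exceeded *Notch3* in 13 of 16 tumors. Each later step in this order held in 8 to 12 of 16 tumors, so neighbors below *Notch2* were not separated by more than the spread between tumors.

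None of the 10 genes passed the threshold between KO and WT in edgeR's two-sided quasi-likelihood test with Benjamini-Hochberg adjustment over 15413 genes, where 4.01% of all genes did (618 genes). At an unadjusted p under 0.05 there were 2 of 10, *Notch2* and *Jag2*. The estimated fold changes of 5 members were above 0 and those of 5 below, with a median of −0.03 on the log2 scale, against 0.10 for all genes tested. With DESeq2, 1 member passed (*Jag2*), beside 12.5% of the 20078 genes with an adjusted p-value. The KO and WT values overlapped for all 10 members, and 0.415% of genes tested did not overlap.

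**Figure D1:**
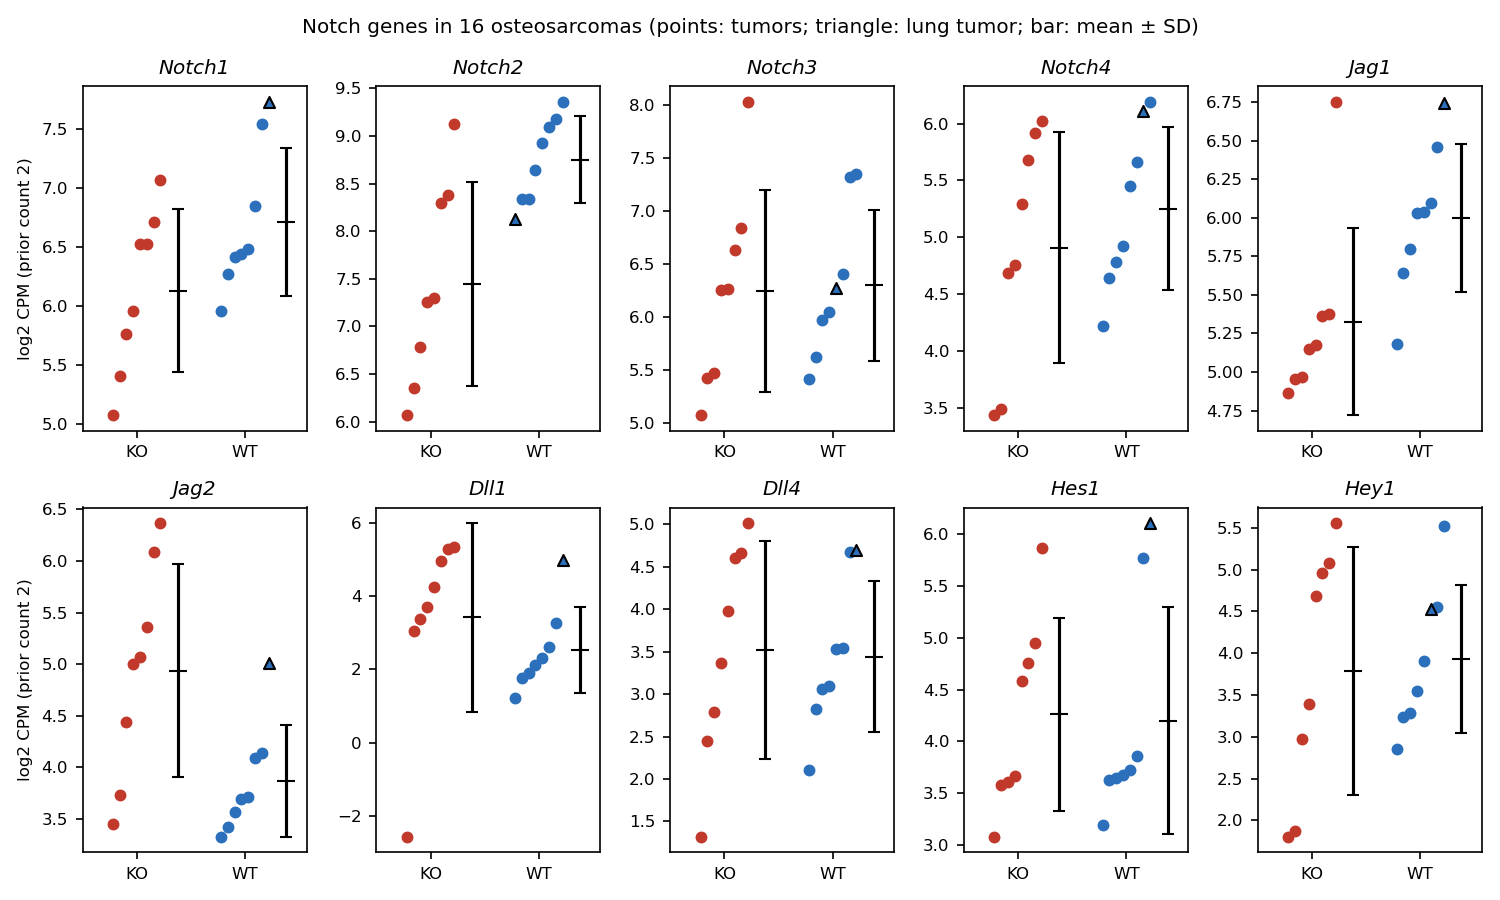
Expression of the 10 Notch genes, as log2 CPM with a prior count of 2, in 8 KO (red) and 8 WT (blue) tumors. Each point is 1 tumor, the triangle is the WT lung tumor and the bar beside each group is the mean ± SD. The groups overlap in every panel, and the isolated low point of *Dll1* is Massa, with 0 counts.

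Among the receptors, *Notch2* had the largest estimated difference. *Notch2* (chromosome 3, 98013527 to 98150361, plus strand) ran from 66.9 CPM in Massa through a median of 155 to 558 CPM in Ohio in KO, and from 279.5 CPM in the lung tumor through a median of 443 to 656 CPM in the N43 spine tumor in WT. Of the KO tumors, 5 lay below every WT tumor, 7 lay below the WT median, and Ohio was exceeded by only 2 WT tumors, those of N43. The means were 222 ± 168 CPM in KO and 449 ± 138 CPM in WT (SD, n = 8 each), and the log2 fold change was −1.02 (SE 0.41, edgeR adjusted p = 0.147, unadjusted p = 0.0223). In bulk tumors, fewer cells of a type and less RNA per cell cannot be told apart.

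Macrophage markers also had lower estimates in KO, but did not follow *Notch2* in every tumor. All 10 macrophage markers had lower estimates in KO, and 9 of the 10 passed the threshold in edgeR, beside 4.01% of all genes tested. That fit took tumors of 1 mouse as independent, and no result by mouse is given for these markers. With counts summed per mouse, 10 genes of the whole table passed. Their summed level ran from 147 to 588 CPM in KO and from 349 to 1867 CPM in WT, and *Csf1r* and *Adgre1*, the defining markers, were at 0 in no tumor. The WT tumors with the least of both were the same: N25 had 349 CPM of macrophage markers and 279.5 CPM of *Notch2*, and N215 had 522 and 323 CPM. Ohio had 558 CPM of *Notch2* with 338 CPM of macrophage markers, below every WT tumor. Over 12 mice, *Notch2* had a Pearson r of 0.76 with the macrophage markers (Spearman rho 0.78). With the osteoblast markers r was 0.61 (rho 0.58). The part of macrophages or osteoblasts in the *Notch2* values was not tested. Without Montana, Oregon, Prince and Massa, the KO tumors in which markers of muscle, epithelium or lung were highest, the log2 fold change of *Notch2* was −0.41 (edgeR adjusted p = 0.502). All of these were among the 5 KO tumors below every WT tumor for *Notch2*. Leaving them out thus removed most of the low end of KO by construction.

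*Notch1*, the receptor best known from development and leukemia, lies on chromosome 2 (26457903 to 26516663, minus strand). It ran from 33.6 CPM in Grilka through a median of 77.0 to 134 CPM in Medusa in KO, and from 61.9 CPM in the N42 left limb tumor through a median of 88.1 to 212 CPM in the lung tumor in WT. Only 3 KO tumors lay below all WT tumors, and the N215 and lung tumors carried the high end of WT. Its log2 fold change was −0.56 (SE 0.32, edgeR adjusted p = 0.306).

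*Notch3*, the receptor of vascular mural cells, and *Notch4*, the endothelial receptor, both lie on chromosome 17 (32120820 to 32166852 and 34564268 to 34588503). *Notch3* ran from 33.5 CPM in Massa through a median of 76.2 to 262 CPM in Medusa in KO, and from 42.4 CPM through a median of 71.7 to 163 CPM in WT. Medusa was the only KO tumor above all WT tumors, and without it the log2 fold change turned from 0.09 to −0.35 (edgeR adjusted p = 0.922 and 0.599). *Notch4* ran from 10.6 to 64.8 CPM in KO and from 18.5 to 73.0 CPM in WT, and the log2 fold change was −0.21 (SE 0.40, edgeR adjusted p = 0.798). Prince and Zelda, with 10.6 and 11.1 CPM, were the KO tumors below all WT tumors.

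The 4 ligands split by estimate, with *Jag1* lower and *Jag2* and *Dll1* higher in KO on average, none past the threshold in edgeR. *Jag2* (chromosome 12, 112907819 to 112929776, minus strand), a Jagged ligand, ran from 10.7 CPM in Grilka through a median of 32.6 to 82.4 CPM in Montana in KO. In WT it ran from 9.87 CPM in the N215 tumor through a median of 12.9 to 32.0 CPM in the lung tumor. Above all WT tumors lay 4 KO tumors, Montana, Oregon, Prince and Massa, and 7 of 8 lay above the WT median. The place of Massa is uncertain, because its 33.5 CPM rested on 15 counts and the lung tumor had 32.0 CPM. The means were 37.7 ± 25.5 CPM in KO and 15.5 ± 7.20 CPM in WT (SD, n = 8 each), and the log2 fold change was 1.29 (SE 0.40, edgeR adjusted p = 0.0724, DESeq2 adjusted p = 0.0169).

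With 1 tumor left out in turn, *Jag2* was past the threshold in edgeR in 2 of 16 cases, without the lung tumor (log2 fold change 1.53, adjusted p = 0.0356) and without Zelda (adjusted p = 0.0331). In the other 14 its adjusted p ran from 0.0508 to 0.148. Without both Massa and Grilka its adjusted p was 0.0490. The 2 KO tumors with the most *Jag2*, Montana (82.4 CPM) and Oregon (68.0 CPM), were also the 2 with the most muscle marker RNA. Prince (40.8 CPM) and Massa (33.5 CPM) came next in *Jag2*, with muscle marker sums of 6.47 and 6.69 CPM. Over 12 mice, *Jag2* had a Pearson r of 0.24 with the muscle markers (Spearman rho 0.08). With the osteoblast markers r was −0.65 (rho −0.76). The part of muscle or osteoblasts in the *Jag2* values was not tested. All 10 muscle markers were tested and none passed the threshold, and their sum ran from 3.32 to 244 CPM in the other 6 KO tumors and from 9.23 to 8733 CPM in WT, with *Ckm* at 0 in Massa and Zelda. Without Montana, Oregon, Prince and Massa, the log2 fold change was 0.33 (edgeR adjusted p = 0.616). These are the 4 tumors above all WT tumors, so leaving them out removed the high end of KO by construction.

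*Dll1*, a Delta-like ligand (chromosome 17, 15367354 to 15376872, minus strand), was the least abundant ligand in WT. It ran from 2.17 CPM in the N42 left limb tumor through a median of 4.47 to 31.6 CPM in the lung tumor in WT, and the next WT tumor, N43 spine, had 9.51 CPM. In KO it ran from 0 counts in Massa, which allows up to 6.69 CPM, through a median of 15.8 to 39.8 CPM in Montana. Apart from Massa, all KO tumors lay above the WT median, and only Montana and Oregon lay above the lung tumor. The log2 fold change was 1.33 (SE 0.64, edgeR adjusted p = 0.221). Without the lung tumor it was 2.09 (edgeR adjusted p = 0.0392).

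*Jag1* (chromosome 2, 137081456 to 137116644, minus strand), the ligand most studied in bone, was lower in most KO tumors. It ran from 29.0 CPM in Massa through a median of 35.6 to 108 CPM in Medusa in KO, and from 36.1 CPM in the N42 left limb tumor through a median of 65.4 to 107 CPM in the lung tumor in WT. The values of 5 KO tumors were below all WT tumors, while Medusa was above all of them. Some of these gaps were small: Prince had 36.0 and Oregon 35.2 CPM against 36.1 CPM in the lowest WT tumor. Medusa had 107.7 CPM against 107.1 CPM in the lung tumor. Massa and Grilka, also below all WT tumors, had only 13 and 23 counts. The log2 fold change was −0.59 (SE 0.30, edgeR adjusted p = 0.241). Without Medusa it was −0.94 (edgeR adjusted p = 0.0370).

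*Dll4*, the ligand of sprouting endothelium (chromosome 2, 119325784 to 119335962, plus strand), ran from 2.32 CPM in Prince through a median of 12.9 to 32.2 CPM in Oregon in KO. In WT it ran from 4.14 CPM through a median of 9.91 to 25.9 CPM. The log2 fold change was 0.26 (SE 0.51, edgeR adjusted p = 0.805), and its sign turned when counts were summed per mouse (−0.14). The 13 endothelial markers, all tested, summed to 207 to 1298 CPM in KO and 382 to 1748 CPM in WT, with *Cdh5* and *Pecam1* at 0 in no tumor, and none passed the threshold. Prince had the lowest endothelial sum, the least *Dll4* and the least *Notch4* of all tumors, and the part of vessel content in this was not tested.

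The plot of alternatives shows how far the estimates of *Jag2*, *Dll1*, *Notch2* and *Jag1* moved. With 1 tumor left out in turn, *Dll1* and *Jag1* each passed the threshold in 1 of 16 cases, those given above, and *Notch2* in none.

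**Figure D2:**
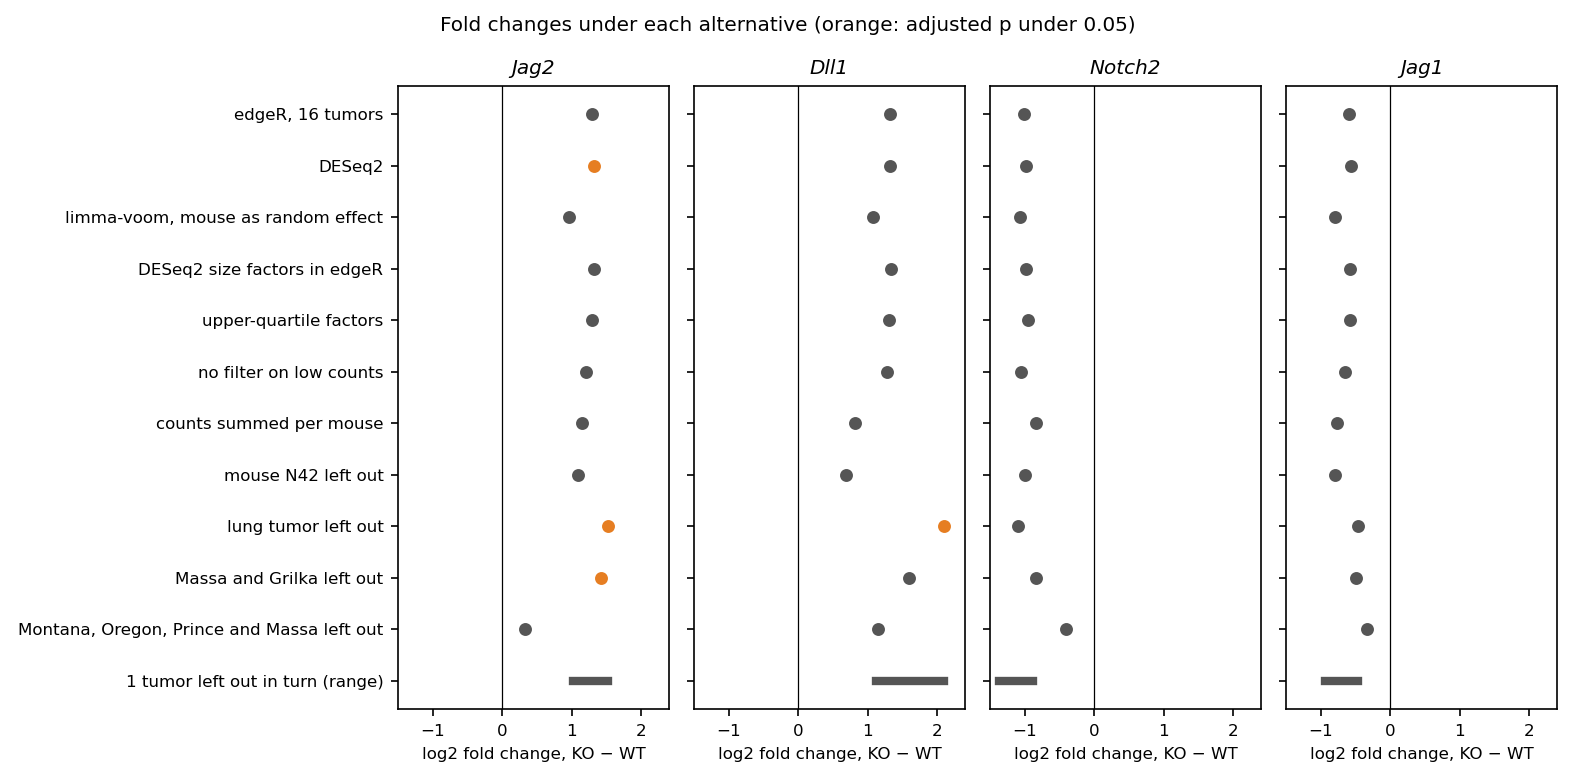
Log2 fold change of *Jag2*, *Dll1*, *Notch2* and *Jag1* between KO and WT under each alternative, with orange points for an adjusted p under 0.05 and grey bars for the range when 1 tumor is left out in turn. *Jag2* lies between 0.33 and 1.53, and *Notch2* moves to −0.41 without Montana, Oregon, Prince and Massa. All of these were among the 5 KO tumors below every WT tumor for *Notch2*.

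Of the target genes, neither differed between the groups by more than its spread. *Hes1* (chromosome 16, 30064384 to 30067796, plus strand) ran from 8.30 CPM in Ohio through a median of 18.1 to 58.0 CPM in Massa in KO, and from 8.99 CPM through a median of 12.8 to 68.5 CPM in the lung tumor in WT. In WT, 6 of 8 tumors lay between 8.99 and 14.4 CPM, and only the N215 tumor (54.3 CPM) and the lung tumor stood above them. The log2 fold change was −0.14 (SE 0.51, edgeR adjusted p = 0.901), and 0.28 without the lung tumor. The 2 tumors with the most *Hes1*, the lung tumor and Massa (26 counts), were those with the most lung marker RNA. The N215 tumor, next in *Hes1*, had the lowest lung marker sum of the WT tumors. Over 12 mice, *Hes1* had a Pearson r of 0.68 with the lung markers, and 0.06 without N25 and Massa. With the epithelial markers r was 0.76, and 0.56 without N25 and Massa. The defining lung markers *Sftpc* and *Scgb1a1* were at 0 in 6 KO tumors each, and in 6 and 5 WT tumors. The sum of all 8 lung markers ran from 0.280 to 11926 CPM in KO and from 7.37 to 28908 CPM in WT. The part of lung or epithelial tissue in the *Hes1* values was not tested.

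*Hey1* (chromosome 3, 8663359 to 8667256, minus strand) ran from 3.32 CPM in Zelda through a median of 17.9 to 46.8 CPM in Massa in KO, and from 7.07 CPM through a median of 13.2 to 45.7 CPM in the N215 tumor in WT. Its log2 fold change of 0.11 (SE 0.55, edgeR adjusted p = 0.931) changed sign to −0.26 when counts were summed per mouse. Massa, Medusa and Grilka had the most *Hey1* among KO tumors (46.8, 33.6 and 30.9 CPM), and their *Hes1* values were 58.0, 11.8 and 26.9 CPM, so the targets did not rank the tumors alike.

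Because several WT tumors share a mouse, the members were also compared over 8 KO and 4 WT mice by a two-sided exact permutation test of mean log2 CPM over all splits. *Jag1* had the smallest p, with a difference KO minus WT of −0.89 (exact p = 0.0263, adjusted over the 10 members 0.242). *Notch1* followed at −0.90 (exact p = 0.0606, adjusted 0.242) and *Notch2* at −1.18 (exact p = 0.0727, adjusted 0.242). *Jag2* was at 0.94 (exact p = 0.143) and *Dll1* at 0.36 (exact p = 0.853). For *Dll1*, the 0 counts of Massa entered as 0.128 CPM, below the floor of 6.69 CPM in that library. The other KO mice had 8.18 to 39.9 CPM, and the WT mice 3.41 to 31.7 CPM. The test was not run without Massa alone. None of the 10 was past 0.05 after adjustment, and in edgeR with counts summed per mouse none passed either, with adjusted p-values of 0.632 for *Notch1*, 0.643 for *Jag1* and *Jag2* and 0.711 for *Notch2*.

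The makeup of the ligand pool was described as each gene's percent of the summed CPM per kilobase of the 4 ligands. *Jag1* made up 49.4% of the pool in the lung tumor and 55.3% to 70.8% in the other 7 WT tumors, with a WT median of 63.7%. In KO it made up 18.1% in Oregon to 52.7% in Medusa, with a median of 40.8%, and 6 of 8 KO tumors lay below every WT tumor. *Jag2* made up a median of 27.8% in KO (8.82% to 39.0%) and 11.8% in WT (5.86% to 23.7%), and *Dll1* a median of 19.4% in KO (0% to 34.1%) and 6.09% in WT (4.67% to 20.1%). Over mice, the *Jag1* share was 37.4% ± 12.5 in KO and 59.6% ± 7.43 in WT (SD, n = 8 and 4, two-sided exact permutation p = 0.0162, adjusted over the 8 shares 0.129). The *Jag2* share was 25.1% ± 11.1 and 11.2% ± 3.56 (exact p = 0.0424, adjusted 0.170). This test was added after the values were seen, shares within a pool are not independent of each other, and none passed after adjustment.

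Among the receptors, *Notch2* made up 44.0% to 78.0% of the receptor pool in WT and 23.2% to 74.1% in KO, with medians of 62.5% and 43.5%. *Notch3* made up a median of 16.8% in WT (6.67% to 23.8%) and 28.6% in KO (13.1% to 40.1%), and 5 KO tumors lay above all WT tumors. Over mice, the *Notch3* share was 15.95% ± 1.55 in WT and 27.2% ± 10.9 in KO (exact permutation p = 0.0909, adjusted 0.226).

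A wider list of 58 genes held other ligands, the enzymes that process ligands and receptors, the nuclear complex, further targets and regulators of receptor turnover. Of these, 56 were in the table and 54 were tested, and 2 of the 54 passed the threshold in edgeR, both lower in KO, a share close to the 4.01% of all genes tested. Their median log2 fold change was −0.13, with 21 above and 33 below 0, beside 0.10 for all genes tested. By role, none of 10 receptor processing genes passed (median −0.47), none of 9 nuclear complex genes (median −0.26), none of 12 corepressors (median 0.11) and none of 4 further targets (median 0.20), and both calls lay among the 9 turnover genes (median −0.19).

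*Dtx4*, a Deltex E3 ubiquitin ligase of the Notch pathway, was lower in KO. It ran from 8.92 CPM in Massa through a median of 29.9 to 57.7 CPM in Grilka in KO, and from 41.0 CPM in the lung tumor through a median of 117 to 142 CPM in WT. The values of 5 KO tumors lay below all WT tumors, and all 8 lay below the next-lowest WT tumor, N215 (62.7 CPM). The log2 fold change was −1.66 (SE 0.35, edgeR adjusted p = 0.0158). It stayed past the threshold with any 1 tumor left out. It did not pass with counts summed per mouse (adjusted p = 0.477), with the mouse as a random effect in limma-voom (0.310), without mouse N42 (0.488) or without Montana, Oregon, Prince and Massa (0.0619).

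*Numbl*, a relative of the Notch inhibitor Numb, was lower in KO too. It ran from 11.2 CPM in Massa through a median of 16.9 to 49.7 CPM in Grilka in KO, and from 15.5 CPM in the lung tumor through a median of 64.3 to 82.5 CPM in WT. Of the KO tumors, 3 lay below all WT tumors, and all 8 lay below the next-lowest WT tumor, N215 (53.5 CPM). The log2 fold change was −1.38 (SE 0.36, edgeR adjusted p = 0.0416). It lost the threshold in the same 4 alternatives as *Dtx4* (adjusted p from 0.176 to 0.616) and with 10 of the 16 tumors left out in turn. These were Montana, Ohio, Prince and Oregon among KO (0.0574 to 0.0780) and all WT tumors of N42 and N43 (0.0685 to 0.0883). Montana, Oregon, Prince and Massa had 11.2 to 17.9 CPM of *Numbl*, toward the low end of KO, so leaving out all 4 removed low KO values by construction.

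**Figure D3:**
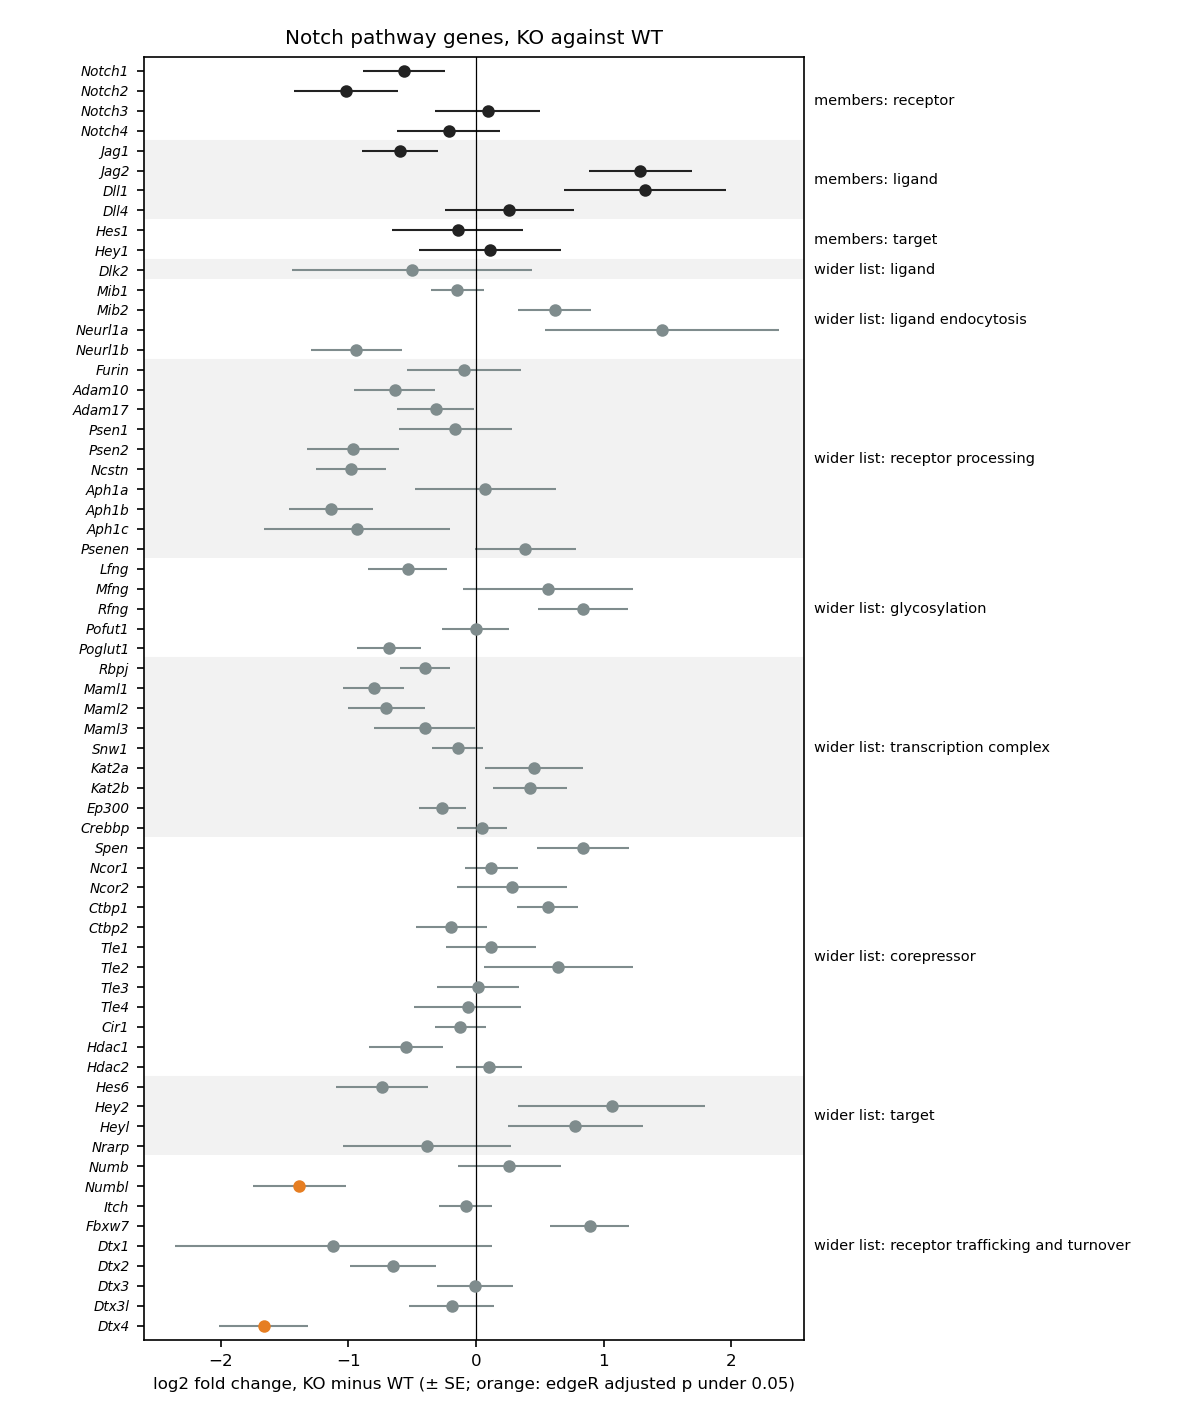
Log2 fold change between KO and WT with its SE for the 10 members (black) and the 54 genes tested of the wider Notch list (grey), grouped by role, with edgeR calls in orange. *Dtx4* at −1.66 and *Numbl* at −1.38 are the genes past the threshold.

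*Rbpj*, the DNA-binding partner of all 4 receptors, ran from 39.5 to 76.8 CPM in KO and from 56.5 to 85.8 CPM in WT. Its log2 fold change was −0.40 (SE 0.19, edgeR adjusted p = 0.226), and 5 KO tumors lay below all WT tumors. DESeq2 called 8 of the 56 genes of the wider list in the table, 7 lower and 1 higher, a share close to the 12.5% it called over all genes. Beside *Dtx4* and *Numbl*, these were the gamma-secretase genes *Ncstn*, *Aph1a*, *Aph1b* and *Aph1c*, the Mastermind coactivator *Maml1* and, higher in KO, the ubiquitin ligase gene *Fbxw7*. These 6 are named after their values were seen. The genes of the sequences above were not called: *Lfng* was at 20.1 ± 6.79 CPM in KO and 28.9 ± 13.7 CPM in WT (SD, n = 8 each, edgeR adjusted p = 0.304), and *Hey2* at 5.25 ± 5.40 and 2.64 ± 2.28 CPM (edgeR adjusted p = 0.402). *Ncstn* had a log2 fold change of −0.98 with an edgeR adjusted p of 0.0525, and *Maml1* one of −0.80 with 0.0638. *Aph1b* and *Aph1c* are near-identical copies whose reads may be split between them, and *Aph1a* was at 0.07 in edgeR and −0.92 in DESeq2, with 153 CPM in Ohio against at most 47.3 CPM in WT.

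The labeled site of the WT tumors was compared next, between 3 tumors of spine or pelvis and 4 of limb. No member passed the threshold in edgeR, and 0% of the 17131 genes tested did (641 genes at an unadjusted p under 0.05, and 31 genes by DESeq2, none of them members). No member had groups that did not overlap in CPM, where 4.89% of genes tested did. Of the 3 spine or pelvis tumors, 2 came from N43 and 1 from N42, and 3 of the 4 limb tumors came from N42, so site and mouse were partly confounded.

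*Notch4* and *Dll1* had the largest estimates toward spine and pelvis. *Notch4* was at 50.6, 24.8 and 73.0 CPM in the N43 spine, N42 right pelvis and N43 pelvis tumors, and at 27.3, 43.5, 18.5 and 30.1 CPM in the N215 right hind limb and the N42 right femur, left limb and left shoulder tumors. The log2 difference, spine and pelvis minus limb, was 0.75 (SE 0.41, edgeR adjusted p = 0.974), and it was −0.29 with the mouse as a covariate. *Dll1* was at 9.51, 4.18 and 5.97 CPM and at 4.76, 3.24, 2.17 and 3.54 CPM in the same order, a log2 difference of 0.96 (SE 0.41, edgeR adjusted p = 0.974).

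*Hes1* had the largest estimate toward limb, and it came from 1 tumor. *Hes1* was at 13.02, 12.6 and 12.3 CPM in spine and pelvis and at 54.3, 14.4, 8.99 and 12.2 CPM in limb, and without the N215 tumor its log2 difference went from −0.79 to 0.11 (edgeR adjusted p = 0.974 and 0.939). The N215 tumor had the highest bone-site WT value of *Notch1*, *Jag1*, *Dll4*, *Hes1* and *Hey1* and the lowest of *Notch2* and *Jag2*. Its osteoblast markers summed to 3156 CPM, against 16288 to 54808 CPM in the other bone-site WT tumors, and the part of this in the Notch values was not tested.

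**Figure D4:**
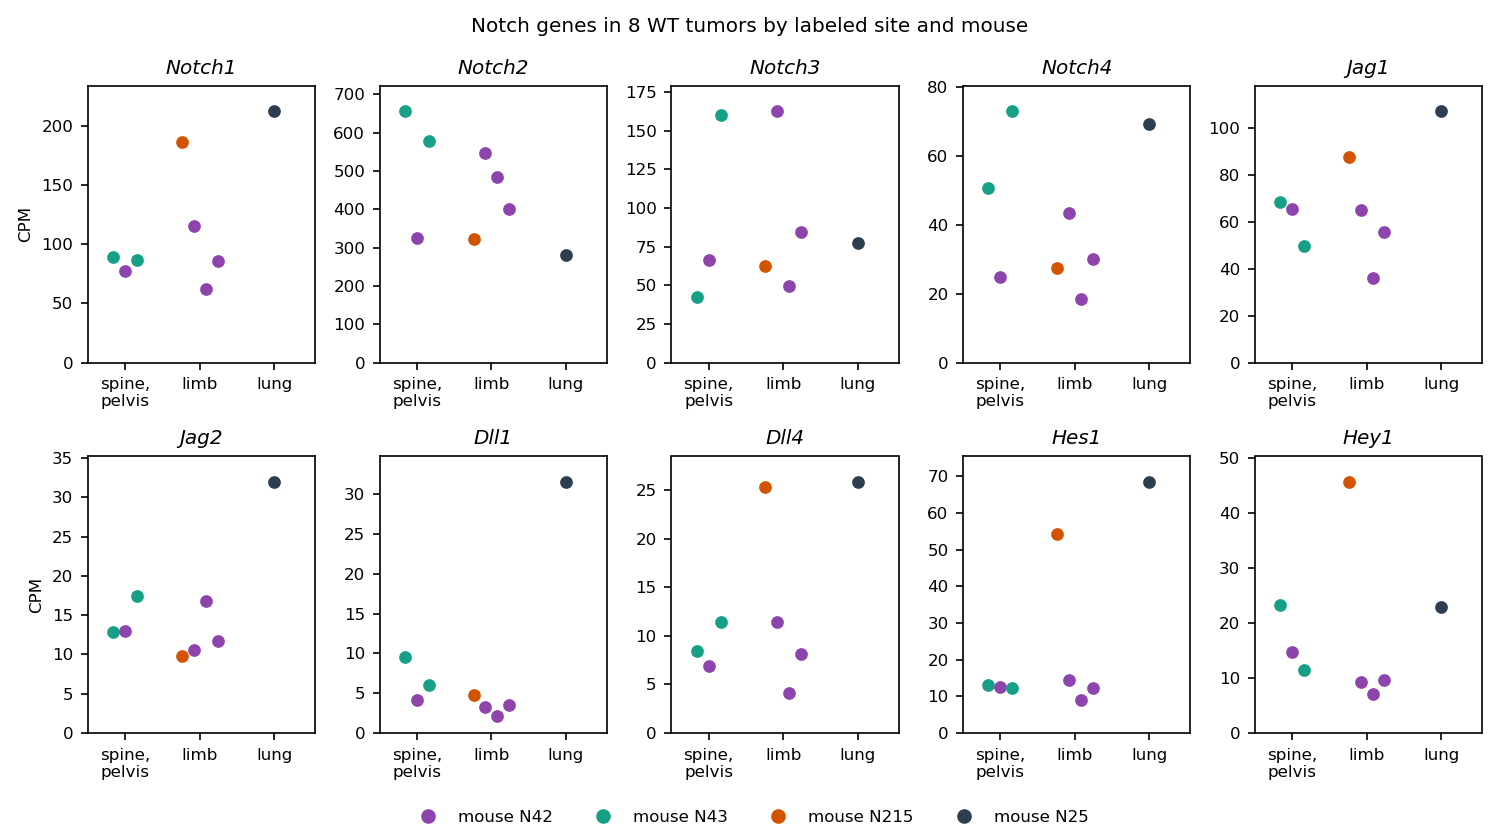
CPM of the 10 Notch genes in the 8 WT tumors by labeled site, with each point 1 tumor colored by its mouse. The N25 lung tumor is the highest point for 6 genes and the lowest for *Notch2*, and the N215 tumor (orange) is the highest limb point for *Hes1*, *Hey1*, *Dll4*, *Notch1* and *Jag1*.

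The lung tumor was above the other 7 WT tumors for 6 members, within them for 3 and below them for *Notch2*. *Dll1* was 7.55 times their median (31.6 against 4.18 CPM), *Hes1* 5.42 times (68.5 against 12.6 CPM), *Dll4* 3.08 times, *Jag2* 2.50 times, *Notch1* 2.44 times and *Jag1* 1.64 times. As 1 tumor of 1 mouse, it gives no replicate check.

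The 4 tumors of mouse N42 show how far a member varied within 1 animal. The highest of the 4 was 1.59 times the lowest for *Jag2*, 1.60 times for *Hes1*, 1.69 times for *Notch2*, 1.81 times for *Jag1*, 1.86 times for *Notch1*, 1.93 times for *Dll1*, 2.09 times for *Hey1*, 2.35 times for *Notch4*, 2.76 times for *Dll4* and 3.30 times for *Notch3*. Over the 8 KO tumors the same ratio ran from 3.71 for *Jag1* to 14.1 for *Hey1*, leaving out *Dll1* with its 0 counts. The left limb tumor was the lowest of the 4 for 8 of the 10 members, and the right femur tumor had the most *Notch3* of all WT tumors (163 CPM). The N43 tumors also differed most in *Notch3*, with 42.4 CPM in spine and 160 CPM in pelvis.

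**Figure D5:**
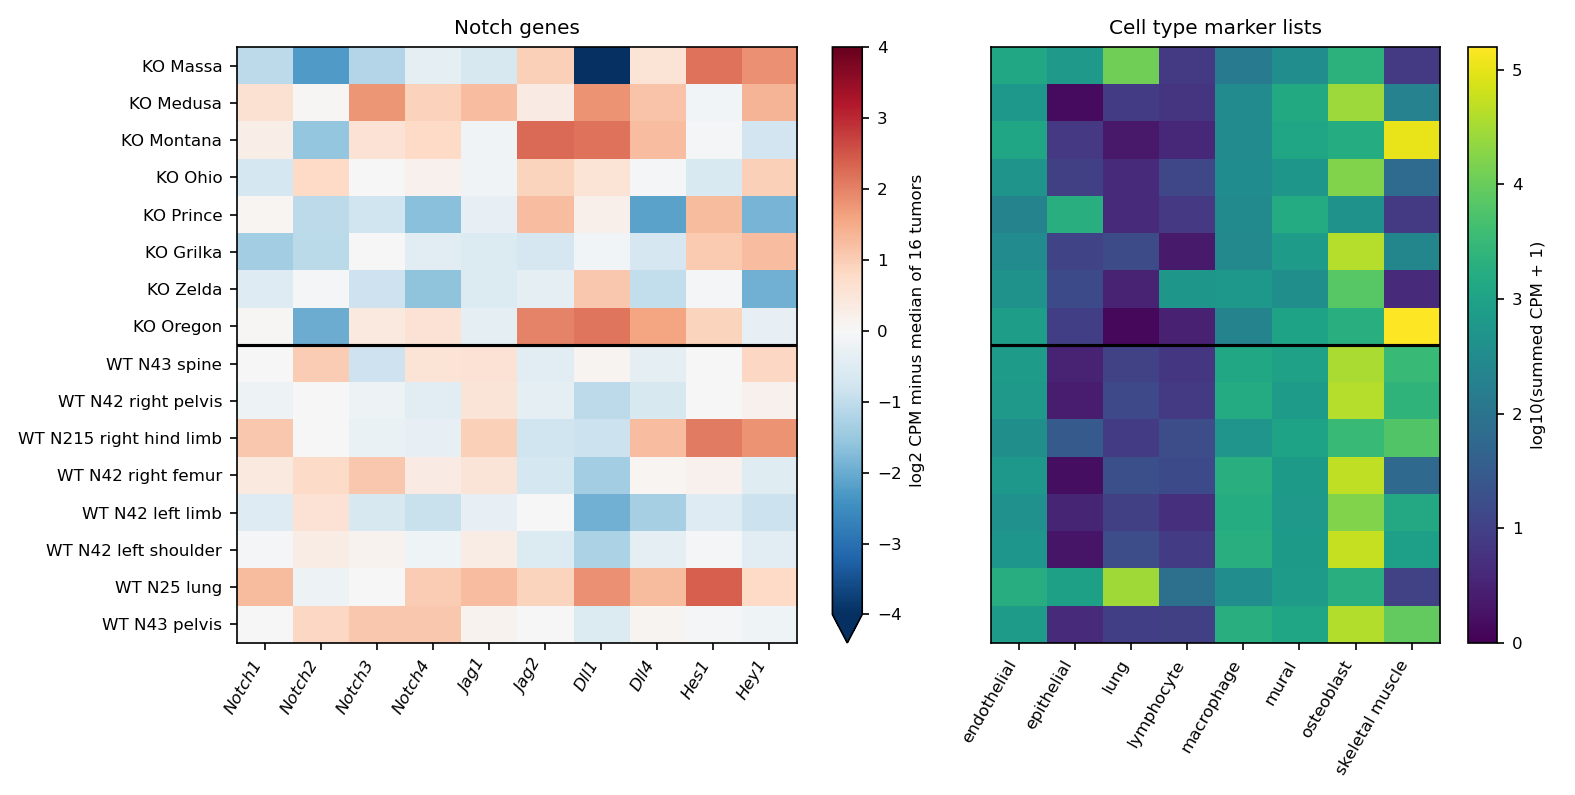
Left, log2 CPM of each Notch gene minus its median over 16 tumors (red above, blue below, values under −4 shown at the end of the scale). Right, log10 of the summed CPM plus 1 of 8 cell type marker lists in the same tumors, with KO above the line and WT below. Montana and Oregon are highest in muscle markers and in *Jag2*, and Massa and the N25 tumor in lung markers and *Hes1*. Prince and Massa, next in *Jag2*, are low in muscle markers, and the N215 tumor, next in *Hes1*, is low in lung markers.

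For each member, the 5 genes whose log2 CPM followed it most closely over the 12 mice were taken from 12239 genes, as a description with no test. These are the highest of many correlations, and the mice also differ in depth and tissue content. *Jag1* was among the 5 closest genes to *Notch1* (Pearson r = 0.84, Spearman rho = 0.80, n = 12 mice), and r was 0.78 without Grilka and N25, the mice farthest from the median of *Notch1*. The other 4 were *Egfr* (r = 0.87), *Epha4* (0.87), *Slc11a2* (0.85) and *Ints4* (0.82). *Jag1* was followed by *Tctn2* (0.89), *Rps2-ps10* (0.87), *Elmo2* (0.85), *Plxna1* (0.84) and *Notch1*.

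*Notch2* was followed most closely by *Gm42899* (r = 0.95), *Gm37534* (0.95), *Gm45257* (0.95), *Gm26930* (0.94) and *Lhfpl2* (0.93). *Notch3* was followed by *Pcdhgb6* (0.87), *Rapgef2* (0.86), *Wdfy3* (0.85), *Clcn6* (0.85) and *Spag9* (0.85), and these fell to between 0.63 and 0.72 without Medusa and Massa. *Notch4* was followed by *Rasal2* (0.89), *Ankrd1* (0.84), *Mmp11* (0.84), *Wdr35* (0.84) and *Plcl1* (0.82), which fell to between 0.48 and 0.75 without Prince and Zelda.

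*Jag2* was followed by *Ogfod1* (r = 0.93), *Cog8* (0.91), *Gnpat* (0.91), *Tsnax* (0.90) and *Tufm* (0.90). The first 4 lie on chromosome 8, between 94037198 and 125034192, while *Jag2* lies on chromosome 12. *Dll1* was followed by *Zfp759* (0.97), *Zfp438* (0.97), *Jak3* (0.96), *Pam16* (0.94) and *Gfod2* (0.93), which fell to between 0.66 and 0.92 without Massa and Montana. *Dll4* was followed by *Adcy4* (0.91), *Syne1* (0.88), *Afap1l1* (0.87), *Dock4* (0.85) and *Cped1* (0.84).

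*Hes1* was followed by *Ccdc187* (r = 0.87), the epithelial keratin gene *Krt7* (0.87), the ephrin gene *Efnb2* (0.87), *Nckap5* (0.87) and *Vgll3* (0.86), which fell to between 0.73 and 0.82 without N25 and Massa. *Hey1* was followed by *Syde1* (0.92), *Apln* (0.87), the vascular peptide gene apelin, *Apbb1* (0.85), *Nrep* (0.84) and *Hmgn1* (0.84). No gene of these lists other than *Jag1* and *Notch1* was itself a member.

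Some members share exonic positions with other annotated genes, and no source used here says whether the libraries kept strand, so reads there cannot be told apart. *Notch1* overlaps *0610009E02Rik* and *Gm13568*, *Notch2* overlaps *Gm42820*, *Notch3* overlaps *Gm17276* and *Dll4* overlaps *Gm14207*. These partners reached at most 2.66, 1.33, 14.9, 4.90 and 2.52 CPM.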

How the data were processed

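RNA from 16 tumors was depleted of ribosomal RNA and sequenced from 1 end. The authors aligned reads to mm10 with Novoalign 2.08.01, allowing multiple alignments, counted them per gene with USeq and deposited raw counts. Here edgeR 4.0.16 in R 4.3.3 was used with TMM normalization, filterByExpr (minimum count 10, minimum total 15) and glmQLFTest on all 16 tumors, with no covariate and a threshold of 0.05. Library sizes were summed over tested genes only, so genes removed by the filter do not enter CPM. Log2 CPM used a prior count of 2. Floors cover counting error only. Alternatives were DESeq2 1.42.0, limma 3.58.1 (voom), other scalings, no filter, counts summed per mouse and tumors left out. Positions and exon lengths come from GENCODE vM21 (24974 of 25054 genes found), and promoter windows from RefSeq.

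Nothing says whether tumors of 1 group were handled separately, so p-values measure the spread between these samples. Labels give no batch or date. The members and lists were chosen with earlier results of these data known. Genes named are the members, *Rbpj*, the wider list genes past the threshold, the 5 genes most correlated with each member among those with a mean of at least 5 CPM, and defining markers.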

Additional observations from a re-analysis of the deposited data

Results flagged for a closer look

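Over 30 groups of values (10 members in the KO, WT and WT limb tumors), 3 had an end value set apart from the rest by more than Dixon's 95% limit for the gap divided by the range of log2 CPM, where chance flags about 1 in 20 groups. *Jag1* in Medusa, at 108 CPM, was set apart at the top of the 8 KO tumors (gap over range 0.73, limit 0.526). *Dll1* in Massa, with 0 counts, was set apart at the bottom of the 8 KO tumors (0.71, limit 0.526), in the library with the highest detection floor. *Hey1* in the N215 right hind limb tumor, at 45.7 CPM, was set apart at the top of the 4 WT limb tumors (0.84, limit 0.829).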

How the results depend on the processing

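The count of all genes past the threshold between KO and WT was 2517 with DESeq2, 17 with limma-voom, 10 with counts summed per mouse, 8 without mouse N42, 976 without Montana, Oregon, Prince and Massa, and 252 to 1348 with 1 tumor left out. Members past it numbered 1 with DESeq2 (*Jag2*), 2 without the lung tumor (*Jag2* and *Dll1*), 1 without Massa and Grilka (*Jag2*) and 0 to 2 with 1 tumor left out. Genes of the wider list numbered 8 with DESeq2, 0 with limma-voom, with mouse sums and without N42, 4 without the lung tumor and 1 to 5 with 1 tumor left out. Between sites, DESeq2 called 31 genes. Signs turned for *Dll4* with limma-voom (−0.49), mouse sums (−0.14), without N42 (−0.19) and without Montana, Oregon, Prince and Massa (−0.11), for *Hey1* with limma-voom (−0.84), mouse sums (−0.26), without N42 (−0.38) and without Massa and Grilka (−0.39), and for *Hes1* without the lung tumor (0.28). With 1 tumor left out, *Hes1* ran from −0.46 to 0.28, *Hey1* from −0.17 to 0.50 and *Notch3* from −0.35 to 0.27. Over mice, *Notch3* turned to 0.0036 with the mean of log2 CPM per mouse and to 0.14 without Montana, Oregon, Prince and Massa. Between sites, the mouse as a covariate turned *Notch2* (−0.55), *Notch3* (−0.57), *Notch4* (−0.29), *Hes1* (0.11) and *Hey1* (0.79), and *Notch3* also turned with DESeq2 (−0.0036), its size factors (−0.0013) and all 16 tumors in 1 fit (−0.014). With 1 tumor left out, site differences ran from −0.71 to 0.45 for *Notch3*, −0.16 to 0.24 for *Jag1*, −0.72 to 0.19 for *Dll4*, −1.06 to 0.11 for *Hes1* and −0.40 to 0.94 for *Hey1*. The cause was not tested. No paired analysis was possible because KO and WT tumors came from different mice. Depth limits all 10 members in Massa (0 to 30 counts each) and Grilka (5 to 114 counts each). *Dll1*, *Dll4* and *Jag2* had 0 to 15 counts in these libraries. The 20 highest genes took 72.8% of all counts in Massa and 70.3% in Grilka, against 12.5% to 43.7% in the other tumors. The TMM factor was 0.41 in both.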
